A study of Mus musculus with 12 samples.

Results

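The genes described here are 10 components of the PIWI-interacting RNA (piRNA) pathway, namely Piwil1, Piwil2, Piwil4, Ddx4, Mov10l1, Tdrd9, Tdrd1, Tdrd6, Mael and Asz1. They were taken by gene symbol from the 20718 genes of the expression table of mouse testis, where all 10 were found and all 10 passed the filter on low counts that left 16296 genes for testing. No member passed the test in any comparison of knockdown, overexpression and control testes. Few genes did at all. Of the 16296 tested, 4 passed with knockdown, 0 with overexpression and 54 between controls. For the difference between the knockdown and overexpression effects 0 passed, and 74 did for any difference among the groups. Of the members, 9 were abundant transcripts that varied little between libraries, and Piwil4 had at most 20 counts in any library.

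piRNAs are small RNAs of the germ line that guide PIWI proteins to transposon and other transcripts. Long precursors are transcribed from piRNA clusters, cut and loaded into PIWI proteins on the mitochondrial surface and in cytoplasmic granules of germ cells, and trimmed at the 3′ end. In the mouse, a fetal wave of piRNAs directs DNA methylation of transposons in prospermatogonia, and a second wave, the pachytene piRNAs, is made in spermatocytes and round spermatids. Male mice that lack these proteins are, as a rule, sterile.

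RNA came from testes of mice (strain given as IRC mouse) that had been injected in the testis at 4 weeks of age with lentivirus and were mated from 9 weeks. Each of the 4 groups had 3 libraries, 12 in all, with labels that begin with F0_ for the injected generation. F0_5251KD received an LV3 vector with a mixture of 3 short hairpin RNAs against the long non-coding RNA lncRNA5251, and F0_3NC received the LV3 vector with a negative control hairpin. F0_5251OV received an LV5 vector that carried full-length lncRNA5251, and F0_5NC received the empty LV5 vector. Which cells took up the virus is not given by the labels, and each value is an average over the whole sample. Nothing in the labels ties the 3 libraries of each group to different animals, so a p-value here measures how far libraries spread, which may be technical. No gene in the table is named lncRNA5251, so the level of the target is not given here. In whole testis, fewer cells of a type and less RNA per cell cannot be told apart.

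Library totals ran from 15431383 to 16355720 estimated counts, a ratio of 1.06. Marker lists of spermatogonia, spermatocytes, round and elongated spermatids, Sertoli cells, Leydig cells, peritubular cells, endothelium and macrophages were detected in the testis libraries. A pair of libraries stood apart in these lists. F0_3NC replicate 2 and F0_5251OV replicate 1 had summed spermatocyte marker levels of 1504 and 1508 CPM (estimated counts after scaling to one library total), against 1117 to 1249 in the other 10. F0_5NC replicate 1 had the highest Sertoli cell marker level, at 1593 CPM against 839 to 1144 in the others. Of 5 genes of the epididymis, the duct next to the testis, 3 were in the table. Their summed level was 99.2 and 92.9 CPM in F0_5NC replicates 2 and 3, 68.5 and 47.5 in F0_5251OV replicates 1 and 2, 15.04 in F0_5NC replicate 1 and 1.78 to 10.04 in the other 7 libraries, and its part in the results was not tested. Results of the members that rest on the first pair are given with and without it.

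Promoter sequence is shown first because the question of what letters their promoters share can be put to the reference alone. RefSeq promoter windows of GRCm38.p6 (300 bases, from 250 before the start site to 50 after it) were at hand for 8 of the 10 members. The letters CACGTG, an E-box that reads the same on both strands and is bound by basic helix-loop-helix proteins, occurred in the windows of 6 of these 8 members, against 9.47% of the 16251 genes of the table with a window, and in 5 of 17 other pathway genes. CACGTG was absent from the windows of Piwil4 and Asz1. It was 1 of 8 motifs searched on both strands, all chosen after promoters of these genes had been read. The others were CAGTT (4 of 8 members, 45% of genes), AACGG (4 of 8, 22.6%), GCGCATG (3 of 8, 5.8%), GCGGGAA (1 of 8, 7.37%), GATTGGC (3 of 8, 10.1%), CCAAT (5 of 8, 42.2%, with GATTGGC overlapping it on the other strand) and a 10-letter X-box core of RFX factors (0 of 8, 0.16%). A match describes the letters of the window and is not a binding site. One stretch is printed for each of the 6 genes, with CACGTG in capitals, to show that the letters around the shared core differ.
Piwil1: aaaaccgccaccCACGTGgcagccaatcag
Ddx4: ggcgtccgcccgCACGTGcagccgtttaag
Mov10l1: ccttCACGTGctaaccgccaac
Tdrd9: gcacgaggctccCACGTGcatgcagggcct
Tdrd1: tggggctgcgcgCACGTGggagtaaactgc
Mael: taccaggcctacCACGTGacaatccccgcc

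On GRCm38.p6 the Piwil1 stretch lies at chr5:128736055-128736084 (plus strand), that of Ddx4 at chr13:112652322-112652351 (minus strand), and that of Mov10l1 at chr15:88982744-88982765 (plus strand), cut short by the edge of its window. The Tdrd9 stretch lies at chr12:111971452-111971481 (plus strand), that of Tdrd1 at chr19:56826186-56826215 (plus strand), and that of Mael at chr1:166238950-166238979 (minus strand). The first base of the motif stood at -29 from the start site in Ddx4 and at -11 from the first of the annotated starts of Tdrd1 that had it, but at -223 in Mael and -246 in Mov10l1, so its position in the windows was not shared. Piwil1 and Tdrd9 had 2 copies each. Their other copies began at -154 and -165. All these positions count from the start site of the promoter window, which can differ from the end of the gene span given below. The Ddx4 stretch, for one, lies inside its gene span.

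Levels were first compared between genes per transcript length, as FPKM, in which the reads of a gene are divided by its transcript length and by the library's depth. Over the 12 libraries the mean FPKM ran from 932 for Mael to 0.218 for Piwil4. Mael, an HMG-box protein of the germ cell granules that is needed for transposon silencing and for pachytene piRNA precursors, ranked 38 of 20718 genes. Ddx4 followed at 230.1 FPKM, Tdrd6 at 127 and Piwil1 at 102. Tdrd1 (40.7), Piwil2 (38.6), Tdrd9 (31.4), Mov10l1 (21.4) and Asz1 (16.1) formed a lower tier, which still stood at percentiles 75.7 to 87 of all genes.

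Most neighbours in this order were apart in every library. Mael was above Ddx4, Ddx4 above Tdrd6, Tdrd6 above Piwil1 and Piwil1 above Tdrd1 with no overlap of their 12-library ranges. Tdrd1 and Piwil2 were the closest pair, with ranges of 36.8 to 46.0 and 35.6 to 44.2 FPKM, and Tdrd1 was the higher in 11 of 12 libraries. The ranges of Mov10l1 (19.07 to 23.0 FPKM) and Asz1 (14.3 to 21.0 FPKM) also overlapped, although Mov10l1 was higher in 12 of 12 libraries. Between Asz1 and Piwil4 lay a gap of 74.0 times.

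**Figure D1:**
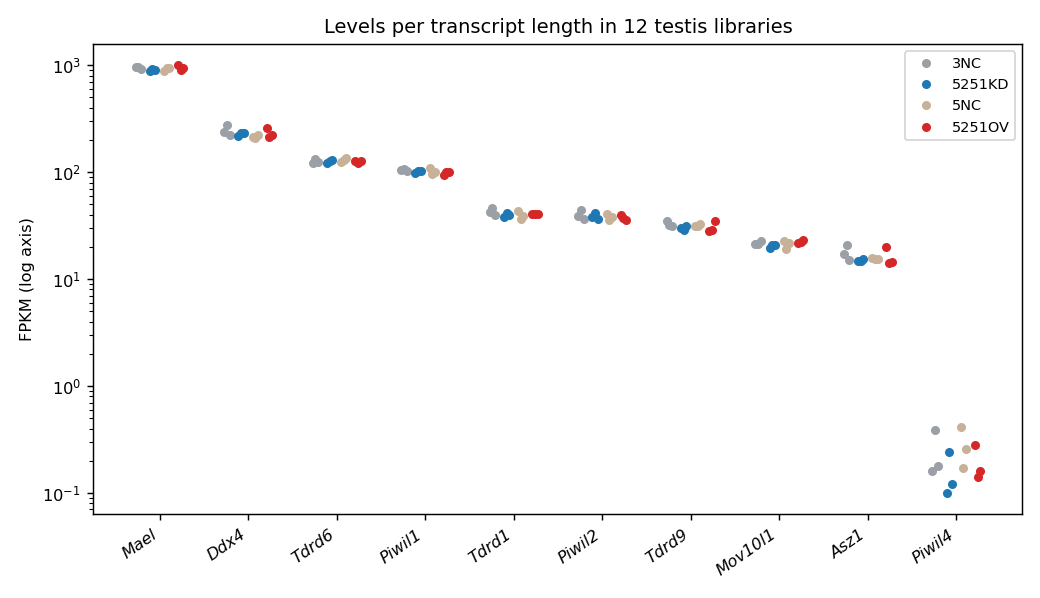
FPKM (log axis) of the 10 members in 12 libraries, ordered by mean, with each point a library and colours for the 4 groups. Mael sits between 884 and 999 FPKM, the other 8 abundant members between 14.3 and 276, and Piwil4 between 0.10 and 0.41.

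The PIWI proteins, the Argonaute family members that bind piRNAs, are described next. Piwil1 (MIWI; gene ID 57749, chr5:128736071-128755474) is the slicer that carries pachytene piRNAs in spermatocytes and round spermatids. Its level was 368, 392 and 393 CPM in the libraries of F0_5251KD, against 402, 406 and 397 in F0_3NC, and 359, 383 and 393 in those of F0_5251OV, against 388, 369 and 384 in F0_5NC. In CPM, all F0_3NC libraries were above all libraries of F0_5251KD, F0_5NC and F0_5251OV, by little. In FPKM, F0_3NC (102.62 to 108.29) overlapped F0_5251KD (98.75 to 103.05) and F0_5NC (95.25 to 110.15), but not F0_5251OV (95 to 100.38). The log2 fold change in F0_5251KD vs F0_3NC was -0.064 (SE 0.065, 95% interval -0.20 to 0.075, adjusted p 0.898), and in F0_5251OV vs F0_5NC it was -0.0083 (SE 0.065, 95% interval -0.15 to 0.13, adjusted p 0.975), both by edgeR's quasi-likelihood test with Benjamini-Hochberg adjustment over 16296 genes, as are all later adjusted p-values except those of the alternatives in the closing section. As percent changes these intervals are -13.1% to 5.35% and -9.70% to 9.48%.

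Piwil2 (MILI; gene ID 57746, chr14:70372477-70436898) binds both fetal and pachytene piRNAs. Its level was 178, 198 and 175 CPM in the libraries of F0_5251KD, against 189.7, 210.4 and 179 in F0_3NC, and 191, 181 and 176 in those of F0_5251OV, against 182, 177 and 183 in F0_5NC. The highest value was that of F0_3NC replicate 2, and the groups overlapped. The log2 fold change was -0.073 (SE 0.077, 95% interval -0.24 to 0.092, adjusted p 0.898) with knockdown and 0.015 (SE 0.077, 95% interval -0.15 to 0.18, adjusted p 0.963) with overexpression. Within each library the FPKM of Piwil2 was 0.352 to 0.419 times that of Piwil1, with a median ratio of 0.376.

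Piwil4 (MIWI2; gene ID 330890, chr9:14701776-14740672) is the nuclear PIWI protein of fetal prospermatogonia and, in the adult, of few spermatogonia. It had 5, 12 and 6 estimated counts in the libraries of F0_5251KD, against 8, 20 and 9 in F0_3NC, and 13, 7 and 8 in those of F0_5251OV, against 19, 8 and 12 in F0_5NC. The values of every group ran through those of the others. Its log2 fold changes of -0.66 (SE 0.479, 95% interval -1.69 to 0.37, adjusted p 0.897) and -0.45 (SE 0.463, 95% interval -1.44 to 0.55, adjusted p 0.778) were the lowest among the members, with the widest intervals, from -69.0% to 29.6% for knockdown. Without F0_3NC replicate 2 and F0_5251OV replicate 1 these values were -0.16 and -0.75. Single libraries also decided them, since knockdown came to -0.17 without F0_3NC replicate 2 and -1.14 without F0_5251KD replicate 2, and overexpression to -0.12 without F0_5NC replicate 1.

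The RNA helicases came next. Ddx4 (VASA, MVH; gene ID 13206, chr13:112598333-112652633) is a DEAD-box helicase and a marker of germ cells. Its level was 583, 636 and 632 CPM in the libraries of F0_5251KD, against 648, 742 and 621 in F0_3NC, and 711, 587 and 623 in those of F0_5251OV, against 541, 588 and 612 in F0_5NC. F0_3NC replicate 2 and F0_5251OV replicate 1 held the highest values and F0_5NC replicate 1 the lowest, and each treated group overlapped its control. The estimated log2 fold change was -0.12 (SE 0.092, 95% interval -0.32 to 0.079, adjusted p 0.897) with knockdown and 0.14 (SE 0.092, 95% interval -0.056 to 0.34, adjusted p 0.645) with overexpression. Without the 2 highest libraries these values were -0.029 and 0.047. Leaving out F0_3NC replicate 2 alone gave -0.040 with knockdown, and leaving out F0_5251OV replicate 1 alone gave 0.061 with overexpression.

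Mov10l1 (gene ID 83456, chr15:88982891-89055152) is the helicase that binds piRNA precursors and feeds them to processing. Its level was 77.6, 84.4 and 83.3 CPM in the libraries of F0_5251KD, against 86.8, 84.2 and 87.3 in F0_3NC, and 87.4, 86.7 and 85.9 in those of F0_5251OV, against 83.2, 78.2 and 86.8 in F0_5NC. F0_5251KD replicate 1 was the lowest library in CPM, where the groups overlapped. On the log2 scale the difference was -0.075 (SE 0.066, 95% interval -0.22 to 0.067, adjusted p 0.897) with knockdown and 0.067 (SE 0.066, 95% interval -0.075 to 0.21, adjusted p 0.764) with overexpression.

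Tdrd9 (gene ID 74691, chr12:111971488-112068854) joins a helicase domain to a Tudor domain and partners with the nuclear PIWI protein. Its level was 135, 128 and 139.8 CPM in the libraries of F0_5251KD, against 155, 139.9 and 143 in F0_3NC, and 122, 118 and 151 in those of F0_5251OV, against 134, 139 and 148 in F0_5NC. The 3 F0_5251KD libraries were below the 3 F0_3NC libraries, although the highest of the former and the lowest of the latter were 139.8 and 139.9 CPM, while the F0_5251OV values spanned nearly the whole range of the 12 libraries. The log2 fold change was -0.12 (SE 0.092, 95% interval -0.32 to 0.080, adjusted p 0.897) with knockdown and -0.10 (SE 0.092, 95% interval -0.30 to 0.093, adjusted p 0.737) with overexpression.

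Tudor proteins bind methylated arginines of PIWI proteins and build the granules. Tdrd1 (gene ID 83561, chr19:56826171-56870012), a partner of MILI in the intermitochondrial cement, was at 178, 199 and 192 CPM in the libraries of F0_5251KD, against 207, 219 and 194 in F0_3NC, and 195, 195 and 201 in those of F0_5251OV, against 193, 180.1 and 186 in F0_5NC. In CPM, all F0_5251OV libraries were above all F0_5NC libraries, and F0_5251KD overlapped F0_3NC. In FPKM, F0_5251OV (40.24 to 40.69) lay within the range of F0_5NC (36.84 to 43.42). Its log2 fold changes were -0.12 (SE 0.070, 95% interval -0.27 to 0.028, adjusted p 0.897) with knockdown and 0.080 (SE 0.070, 95% interval -0.071 to 0.23, adjusted p 0.738) with overexpression.

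Tdrd6 (gene ID 210510, chr17:43615334-43631846) organises the chromatoid body of spermatids. Its level was 826, 895 and 912 CPM in the libraries of F0_5251KD, against 858, 917 and 878 in F0_3NC, and 895, 859 and 914 in those of F0_5251OV, against 810.2, 920.1 and 942 in F0_5NC. No group stood apart, and F0_5NC held both the lowest and the highest library. edgeR gave log2 fold changes of -0.011 (SE 0.076, 95% interval -0.18 to 0.15, adjusted p 0.983) with knockdown and -0.0021 (SE 0.076, 95% interval -0.17 to 0.16, adjusted p 0.994) with overexpression, the values nearest to 0 among the members in both comparisons.

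Mael (gene ID 98558, chr1:166201385-166238744) was at 1238, 1310.2 and 1272 CPM in the libraries of F0_5251KD, against 1393, 1337 and 1334 in F0_3NC, and 1401, 1302 and 1399 in those of F0_5251OV, against 1163, 1366 and 1323 in F0_5NC. The F0_5251KD values lay below all F0_3NC values, and F0_5NC replicate 1 was the lowest library of all. The log2 fold change was -0.089 (SE 0.076, 95% interval -0.25 to 0.074, adjusted p 0.897) with knockdown and 0.090 (SE 0.076, 95% interval -0.072 to 0.25, adjusted p 0.726) with overexpression.

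Asz1 (GASZ; gene ID 74068, chr6:18050964-18109061) anchors piRNA processing to the outer mitochondrial membrane. Its level was 23.1, 23.9 and 24.9 CPM in the libraries of F0_5251KD, against 27.1, 30.4 and 24.4 in F0_3NC, and 29.1, 22.5 and 24.3 in those of F0_5251OV, against 23.1, 24.7 and 24.1 in F0_5NC. F0_3NC replicate 2 and F0_5251OV replicate 1 were the highest libraries, as for Ddx4, and every other library was at or below 27.1 CPM. Log2 fold changes came to -0.19 (SE 0.112, 95% interval -0.43 to 0.053, adjusted p 0.897) with knockdown, which became -0.091 without these 2 libraries, and 0.079 (SE 0.112, 95% interval -0.16 to 0.32, adjusted p 0.847) with overexpression, which became -0.049.

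**Figure D2:**
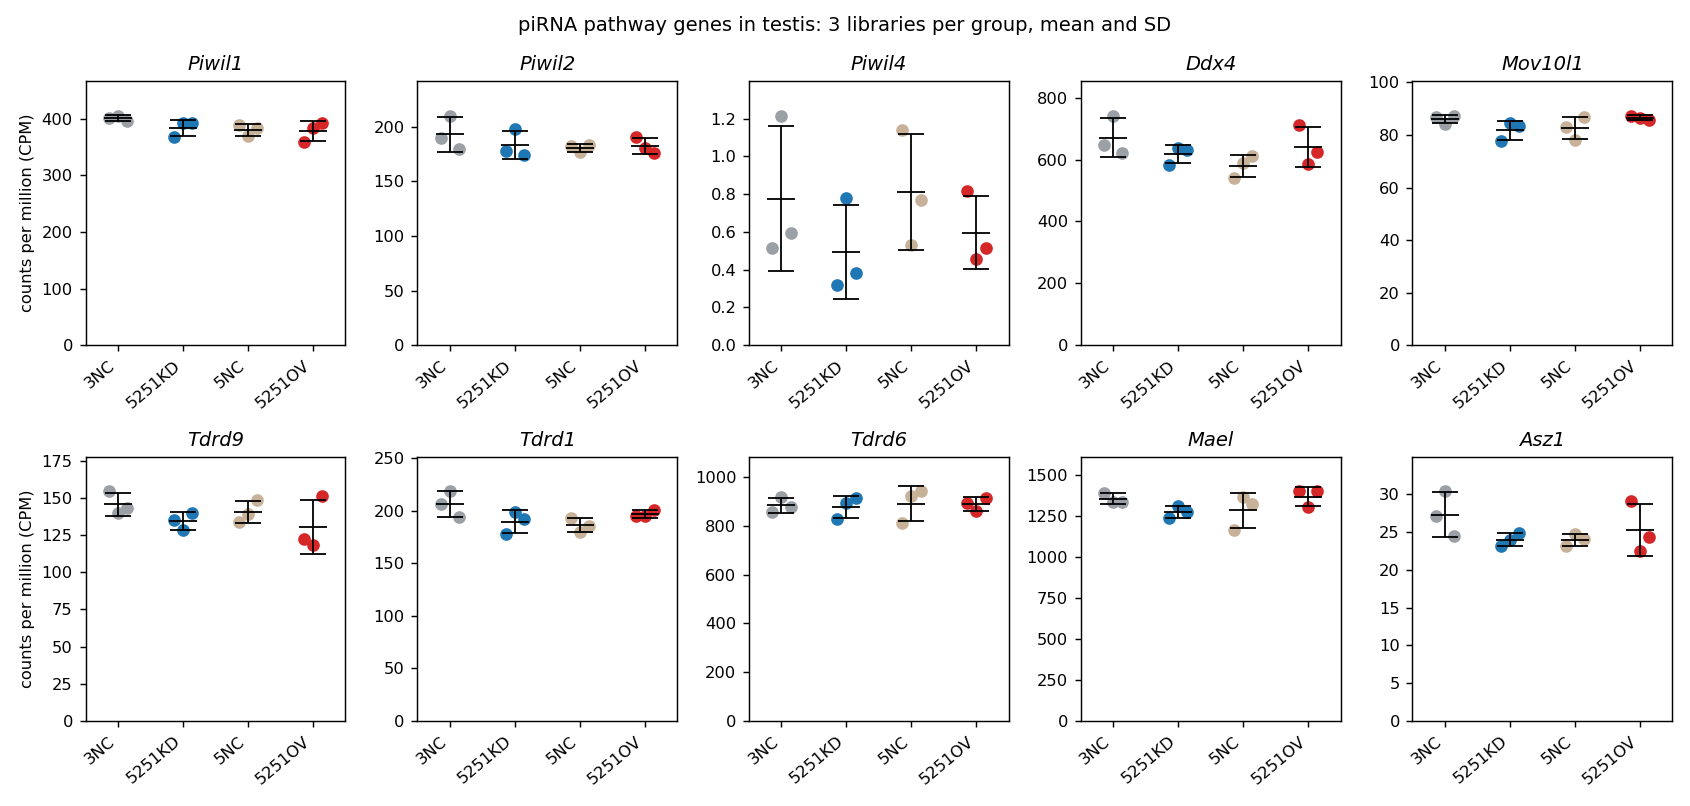
CPM of each member in the 3 libraries of each group (points), with the group mean and SD (bars), on axes that start at 0. For 9 members the highest library was 1.13 to 1.37 times the lowest, and for Piwil4 it was 3.83 times.

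The members other than Piwil4 varied little between libraries of a group. The within-group SD of log2 CPM had a median of 0.080 over the members and 0.181 over all genes tested. The members other than Piwil4 stood at FPKM percentiles 75.7 to 99.8 of all genes. No comparison with genes of like level was made, so the lower SD is not shown to be particular to the members. It was 0.049 for Piwil1, the lowest, 0.128 for Asz1 and 0.495 for Piwil4. The members other than Piwil4 had between 345 and 22347 estimated counts per library.

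Whether knockdown of lncRNA5251 altered the members was asked in F0_5251KD vs F0_3NC. The estimate was below 0 for 10 of 10 members (9 of 10 by limma on FPKM, with Tdrd6 above 0), against 50.9% of all genes, with a median of -0.10 against -0.0045 over all genes, and a range from -0.66 (Piwil4) to -0.011 (Tdrd6). None passed the test, against 0.0245% of all genes (4 of 16296), and none had an unadjusted p under 0.05, as 4.74% of all genes did. DESeq2 and limma called 0 of 10 as well. In CPM, Piwil1, Tdrd9 and Mael, 3 of 10, had all treated libraries below all control libraries, against 6.28% of all genes. In 0 of 10 were they all above, against 5.52% (11.8% in either direction). In FPKM the groups overlapped for Piwil1 (treated up to 103.05, controls from 102.62). They did not for Mov10l1 (treated up to 20.93, controls from 21.23). Shares over all genes were not computed in FPKM for any comparison. Without F0_3NC replicate 2 and F0_5251OV replicate 1 the median was -0.073 and 8 of 10 estimates were below 0, Piwil2 and Tdrd6 being at 0.0042 and 0.028. Without F0_5251KD replicate 1 alone the median was -0.076 and Tdrd6 was at 0.028. The members were measured in the same libraries, so their signs are not independent of each other. The spermatocyte markers had a median of -0.15 in this comparison with 9 of 10 below 0. Spermatogonia markers were at -0.034 (6 of 8 below 0), round spermatids at -0.016 (4 of 8) and elongated spermatids at 0.034 (2 of 6). The Leydig cell markers had a median of 0.31 with 5 of 7 above 0, and the endothelium markers 0.34 with 4 of 4 above 0. Peritubular cells were at 0.12 (5 of 5 above 0), Sertoli cells at 0.061 (7 of 10) and macrophages at 0.17 (4 of 5). The part of these lists in the members' values was not tested. Apart from Piwil4, no 95% interval reached beyond 0.43 on the log2 scale in either direction.

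Overexpression was examined in F0_5251OV vs F0_5NC. The estimate was above 0 for 6 members (Piwil2, Ddx4, Mov10l1, Tdrd1, Mael and Asz1) and below 0 for 4 (Piwil1, Piwil4, Tdrd9 and Tdrd6), against 50.5% of all genes below 0 (5 and 5 with upper-quartile scaling and by limma, with Piwil2 below 0), with a median of 0.041 against -0.0020 over all genes. None passed the test, against 0% of all genes (0 of 16296), and 0 of 10 had an unadjusted p under 0.05, against 8.77% of all genes. DESeq2 and limma also called none of the members. In CPM, Tdrd1 alone, 1 of 10, had treated libraries above all control libraries, a share near the 7.33% of all genes. In 0 of 10 were they all below, against 6.57% (13.9% in either direction). In FPKM the groups overlapped for Tdrd1 too. Without the 2 libraries that stood apart the median was -0.0025, with 5 members above and 5 below 0, and without F0_5NC replicate 1 it was 0.020, with 7 above and 3 below. The spermatocyte markers had a median of 0.12 with 9 of 10 above 0 (2 with an unadjusted p under 0.05), and the round spermatid markers 0.11 with 8 of 8 above 0. Elongated spermatid markers were at 0.043 (5 of 6 above 0), but spermatogonia markers at -0.085 (6 of 8 below 0). Markers of somatic cells were below 0, with medians of -0.48 for peritubular cells (5 of 5, 4 of them with an unadjusted p under 0.05), -0.23 for Sertoli cells (10 of 10, 4), -0.48 for macrophages (5 of 5, 1), -0.22 for Leydig cells (7 of 7, 1) and -0.18 for endothelium (4 of 4, 1). Whether these bear on the members was not tested. Apart from Piwil4, the intervals stayed within 0.34 on the log2 scale.

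The difference between the control vectors was measured in F0_3NC vs F0_5NC. It shares F0_3NC with the knockdown comparison and F0_5NC with the overexpression comparison, so its values are not independent of theirs. The estimate was above 0 for 8 of 10 members and below 0 for 2 of 10 (Piwil4 and Tdrd6), against 49.9% of all genes below 0, with a median of 0.077. No member passed the test, against 0.331% of all genes (54 of 16296). Ddx4 had the largest difference, 0.21 (SE 0.092, 95% interval 0.0098 to 0.41, adjusted p 0.407), with group means of 580.2 ± 35.8 CPM for F0_5NC (SD, n = 3) and 670.3 ± 63.7 CPM for F0_3NC, and was the member with an unadjusted p under 0.05 (0.0411), against 11.9% of all genes. Without the pair of libraries its value was 0.11, and without F0_3NC replicate 2 alone it was 0.13. In CPM, Piwil1, Ddx4 and Tdrd1, 3 of 10, had F0_3NC wholly above F0_5NC, against 9.59% of all genes. In 0 of 10 was it wholly below, against 7.41% (17% in either direction). In FPKM the groups overlapped for all 3 of these genes. There F0_3NC began at 102.62, 223.56 and 39.75 FPKM, and F0_5NC reached 110.15, 224.71 and 43.42, in that order. The spermatocyte markers had a median of 0.19 with 8 of 10 above 0 and the round spermatid markers 0.10 with 8 of 8 above 0. Elongated spermatid markers were at -0.039 (5 of 6 below 0) and spermatogonia markers at -0.040 (5 of 8 below 0). Sertoli cell markers had a median of -0.26 with 10 of 10 below 0 (5 with an unadjusted p under 0.05) and macrophage markers -0.36 with 4 of 5 below 0. Peritubular cells were at -0.20 (3 of 5 below 0), Leydig cells at -0.0050 (4 of 7) and endothelium at -0.097 (4 of 4). The 2 epididymis genes tested had a median of -2.42 and a smallest unadjusted p of 0.0018. The part of these lists in the members' values was not tested.

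Whether knockdown and overexpression had different effects was tested directly as the log2 fold change in F0_5251KD vs F0_3NC minus that in F0_5251OV vs F0_5NC. The estimate was below 0 for 10 of 10 members, against 49.6% of all genes, with a median of -0.16, although Tdrd6 and Tdrd9 were above 0 with upper-quartile scaling, Tdrd6 also with DESeq2 and limma, and Piwil1 with limma. It ranged from -0.27 (Asz1) and -0.26 (Ddx4) to -0.0089 (Tdrd6). None passed the test, against 0% of all genes (0 of 16296), and 0 of 10 had an unadjusted p under 0.05, against 11.3% of all genes. The smallest adjusted p was 0.448 (Tdrd1). Without the 2 libraries the median was -0.060, with 7 of 10 below 0, the values of Asz1 and Ddx4 were -0.042 and -0.076, and those of Piwil2, Piwil4 and Tdrd6 were above 0. Markers of peritubular cells had a median of 0.58 (5 of 5 above 0), Sertoli cells 0.34 (10 of 10), macrophages 0.64 (5 of 5), endothelium 0.58 (4 of 4) and Leydig cells 0.60 (6 of 7). Those of spermatocytes were at -0.26 (8 of 10 below 0) and of round spermatids at -0.11 (8 of 8 below 0). Spermatogonia were at -0.0036 (4 of 8 below 0) and elongated spermatids at -0.013 (3 of 6 below 0). The part of these lists was not tested. The test of any difference among the 4 groups called none of the members either, against 0.454% of all genes, with adjusted p-values from 0.767 (Ddx4) to 0.998 (Tdrd6).

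**Figure D3:**
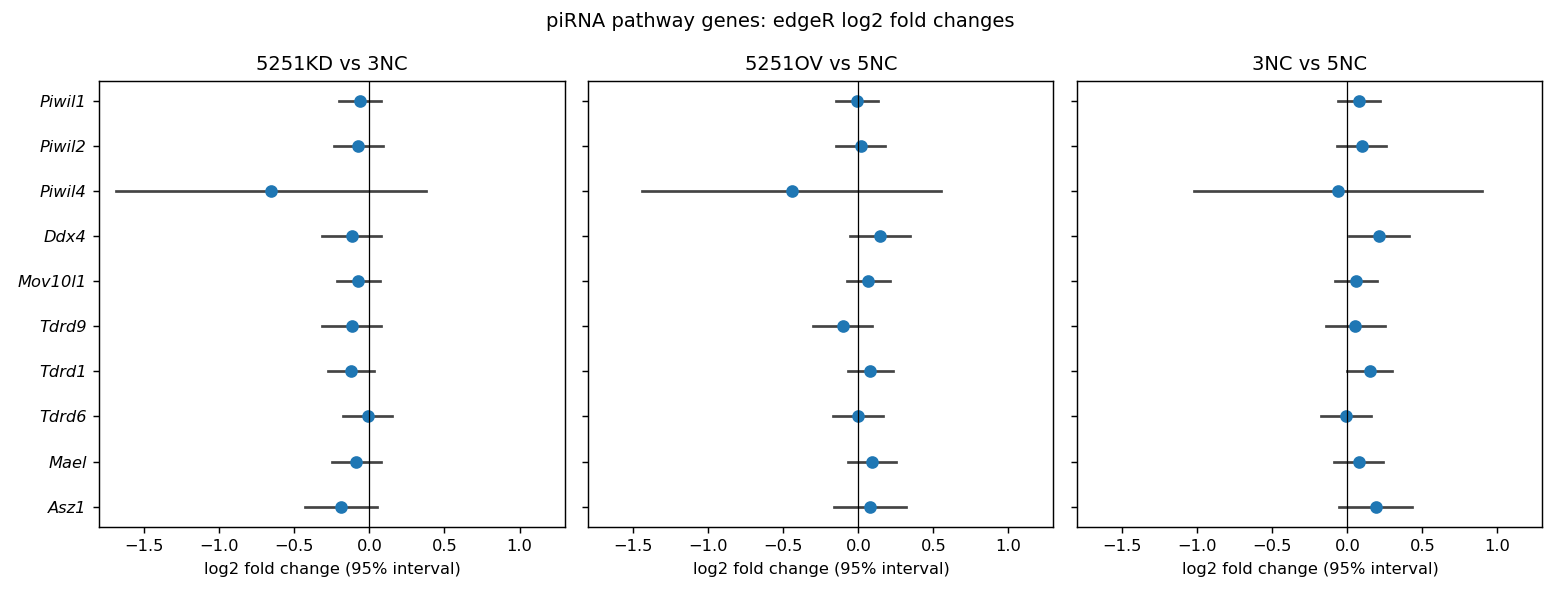
Log2 fold change (points) and 95% interval (lines) of the 10 members in 3 comparisons by edgeR, with a vertical line at 0. Every interval includes 0 except that of Ddx4 between the control vectors (0.0098 to 0.41), and none of the points passed the adjusted threshold.

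The rest of the pathway was read from a list of 24 other genes, of which 23 were in the table and all 23 were tested. They comprise the transcription factors Mybl1, Tcfl5 and Btbd18, the mitochondrial and cleavage factors Pld6, Tdrkh, Gpat2 and Exd1, the 3′ end enzymes Pnldc1 and Henmt1, further PIWI partners and Tudor proteins, the arginine methylation pair Prmt5 and Wdr77, and nuclear silencing factors. None passed the test in any comparison. With knockdown 17 of 23 estimates were below 0, against 50.9% of all genes, and none had an unadjusted p under 0.05, against 4.74%. With overexpression 6 of 23 were below 0, against 50.5% of all genes, and 6 had an unadjusted p under 0.05, against 8.77%. Between controls 7 of 23 were below 0 (49.9% of all genes), with 4 under 0.05 (11.9%), and for the difference of effects 17 of 23 were below 0 (49.6%), with 6 under 0.05 (11.3%). These counts were not computed without F0_3NC replicate 2 and F0_5251OV replicate 1, in which several of these genes had their highest values.

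The genes with the smallest p in each direction are given as the named-gene rule requires. Tdrkh, a Tudor protein of the mitochondrial surface, was at 55.5, 50.6 and 49.8 CPM in F0_5251OV and 43.2, 41.2 and 44.3 in F0_5NC. The groups did not overlap, and the log2 fold change was 0.28 (SE 0.090, 95% interval 0.082 to 0.47, adjusted p 0.536). Prmt5, which methylates arginines of PIWI proteins, was at 23.4, 27.6 and 25.9 CPM in F0_5251OV and 29.4, 29.7 and 29.0 in F0_5NC, with a log2 fold change of -0.20 (SE 0.086, 95% interval -0.38 to -0.011, adjusted p 0.556). Tdrkh and Prmt5 had unadjusted p-values of 0.0087 and 0.0392. Tdrkh also had the smallest p among these genes for any difference among the 4 groups (0.0336, adjusted p 0.604).

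Rnf17, a Tudor protein of spermatid granules, was at 248, 279 and 266 CPM in the libraries of F0_5251KD, against 283, 373 and 270.2 in F0_3NC, and 348, 262 and 285 in those of F0_5251OV, against 225, 248 and 261 in F0_5NC. Its highest libraries were again F0_3NC replicate 2 and F0_5251OV replicate 1. Apart from these, Rnf17 was at 283 and 270.2 CPM in F0_3NC and at 262 and 285 in F0_5251OV. Its log2 fold changes without these libraries were not computed. By edgeR the log2 fold change was -0.23 (SE 0.127, 95% interval -0.50 to 0.048, adjusted p 0.897) with knockdown, and the difference of effects was -0.51 (SE 0.180, 95% interval -0.90 to -0.13, adjusted p 0.403). That difference for Prmt5 was 0.28 (SE 0.121, 95% interval 0.021 to 0.54, adjusted p 0.424). Btbd18, a nuclear factor for pachytene piRNA cluster transcription, had a log2 fold change of 0.19 (SE 0.159, 95% interval -0.16 to 0.53, adjusted p 0.897) with knockdown and -0.32 (SE 0.158, 95% interval -0.66 to 0.019, adjusted p 0.438) between controls. Dnmt3l, the cofactor of de novo DNA methylation in prospermatogonia, was at 8.05, 8.70 and 8.92 CPM in F0_3NC and 4.49, 3.37 and 7.42 in F0_5NC, with a log2 fold change of 0.75 (SE 0.249, 95% interval 0.21 to 1.28, adjusted p 0.310).

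**Figure D4:**
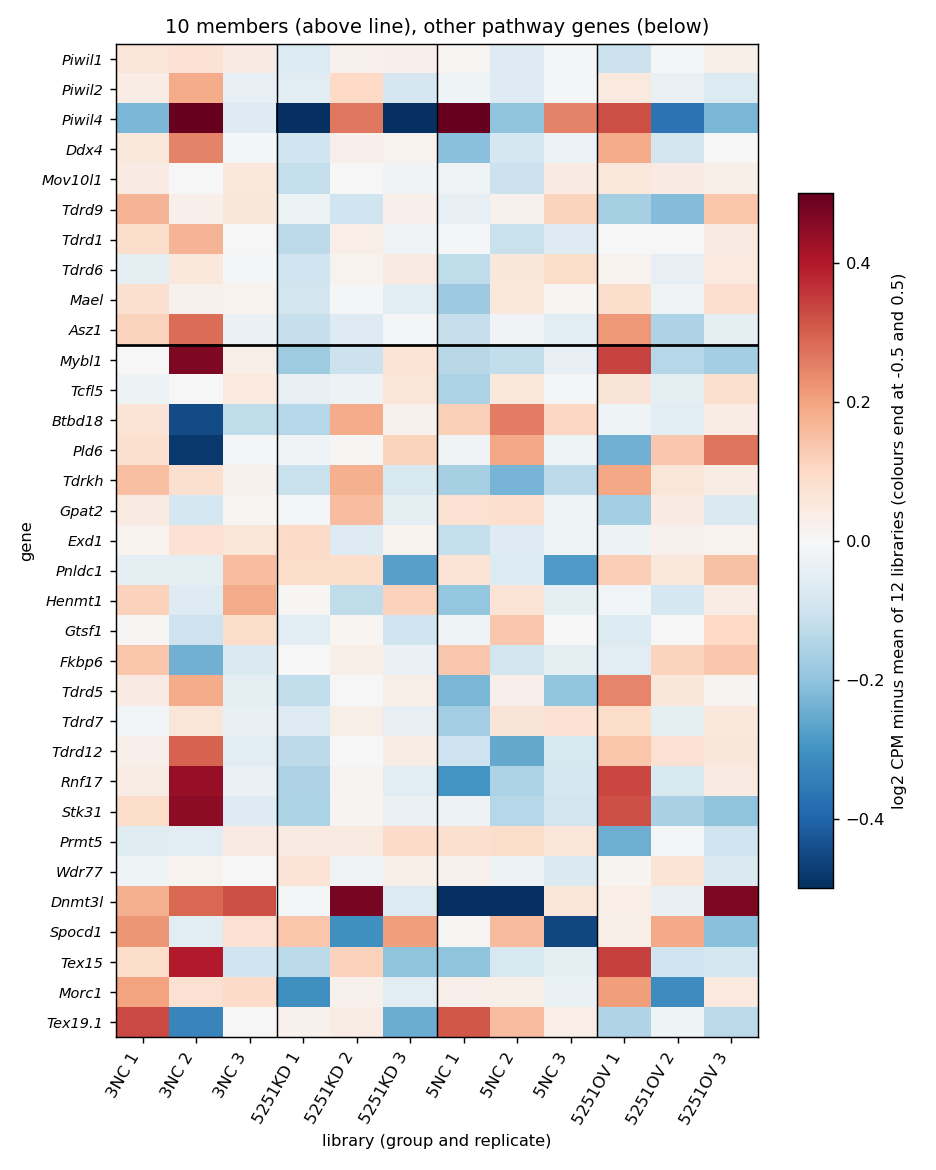
Log2 CPM minus the mean of the 12 libraries for the 10 members (above the line) and 23 other pathway genes (below), with libraries in columns by group, where red is above and blue below the mean, and colours end at -0.5 and 0.5. Ddx4, Asz1, Mybl1, Rnf17, Stk31 and Tex15 are red in F0_3NC replicate 2 and F0_5251OV replicate 1, and Pld6 and Gpat2 are blue in both.

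Library by library in CPM, F0_3NC replicate 2 was the highest for 6 of 10 members (Piwil1, Piwil2, Piwil4, Ddx4, Tdrd1 and Asz1), and F0_5251OV replicate 1 for 2 (Mov10l1 and Mael). F0_5251KD replicate 1 and F0_5NC replicate 1 were each the lowest for 3. Ddx4 and Asz1, 2 of 10, had their 2 highest values in F0_3NC replicate 2 and F0_5251OV replicate 1, as did 6 of 23 other pathway genes (Mybl1, Tdrd5, Tdrd12, Rnf17, Stk31 and Tex15), 6 of 10 spermatocyte markers and 14.1% of all genes tested. Other pathway genes also went the other way. Pld6 and Gpat2, 2 of 23, had their 2 lowest values in these libraries, as did 14.3% of all genes tested and 0 of 10 members. F0_3NC replicate 2 was the highest library for 5 of the 23 and the lowest for 5. Mybl1 (A-MYB), which drives transcription of pachytene piRNA clusters and many pathway genes, was at 87.5, 121 and 89.4 CPM in F0_3NC and 111, 79.3 and 77.9 in F0_5251OV. The same 2 libraries were not high for every member. In F0_5251OV replicate 1, Piwil1 had its lowest value of the 12 libraries (359 CPM) and Tdrd9 one of its lowest (122 CPM).

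The mean of the 9 members other than Piwil4, relative to its mean over the 12 libraries, was 0.12 on the log2 scale in F0_3NC replicate 2 and 0.038 in F0_5251OV replicate 1, where the spermatocyte markers were at 0.21 and 0.19. In F0_5NC replicate 1 it was -0.079, with Sertoli cell markers at 0.48, macrophage markers at 0.68 and round spermatid markers at -0.27. In F0_5251KD replicate 1 it was -0.089, with spermatocyte markers at -0.13, endothelium markers at 0.29 and Leydig cell markers at 0.52, the highest of the 12 libraries. The part of these cell types in the members' values was not tested.

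**Figure D5:**
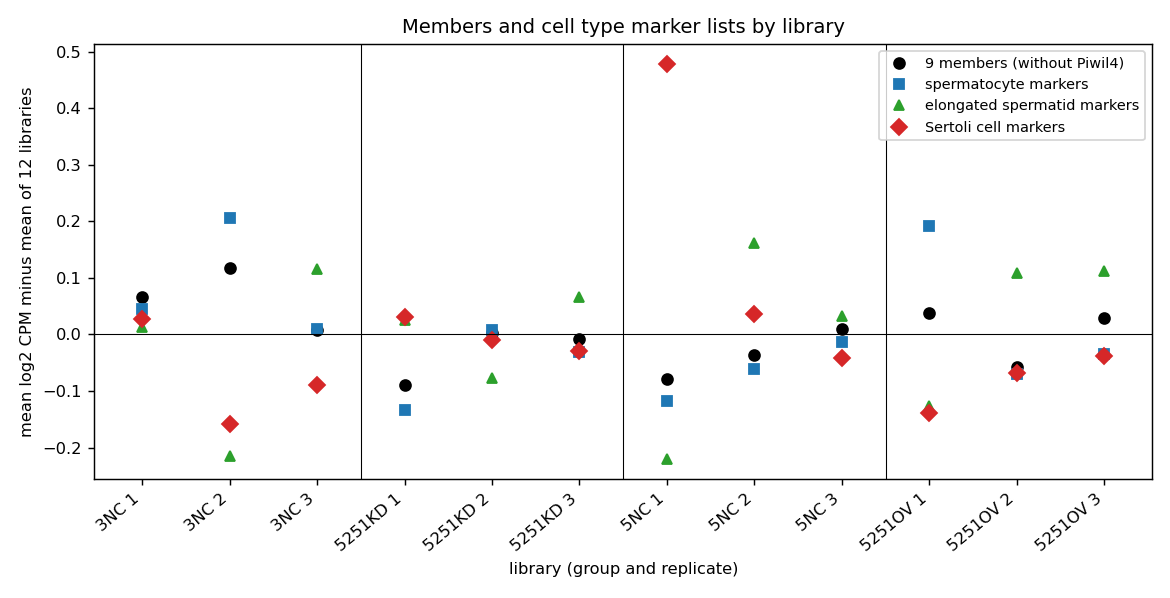
Mean log2 CPM minus the mean of 12 libraries for 9 members (Piwil4, with few counts, is left out) and for marker lists of spermatocytes, elongated spermatids and Sertoli cells, one point per list and library. The members stay between -0.089 and 0.12, while spermatocyte markers reach 0.21 in F0_3NC replicate 2 and Sertoli cell markers 0.48 in F0_5NC replicate 1.

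Ratios within a library do not depend on its scaling. The FPKM of Ddx4 was 0.224 to 0.288 times that of Mael, highest in F0_3NC replicate 2. Tdrd1 was at 0.285 to 0.350 times Tdrd6, with group means of 0.339 in F0_3NC, 0.314 in F0_5251KD, 0.322 in F0_5251OV and 0.306 in F0_5NC. Asz1 was at 0.633 to 0.989 times Mov10l1, the widest of these ratios, again highest in F0_3NC replicate 2.

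The genes outside the pathway whose centred log2 CPM over the 12 libraries came nearest to the mean profile of the members were Ermp1 (root mean square difference 0.035), Gpbp1l1 (0.039), Ccdc82 (0.044), Top2a (0.044) and Usp24 (0.044). The profile itself had a root mean square of 0.083. Among the members Piwil2 (0.050) and Tdrd1 (0.053) were nearest to it and Piwil4 (0.406) farthest, and the profile includes Piwil4 with its few counts. These values describe likeness across 12 libraries and carry no test.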

How the data were processed

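Testis RNA was measured by poly(A) RNA sequencing in 12 libraries of 4 groups, taken from the labels. Per the study's methods, the authors mapped reads to reference genes with SOAPaligner 2.20 and tested genes with DEGseq. The build, mm10, is named in the submitters' processing notes. Which tool counted the reads is not stated in the labels or methods. The authors deposited, per gene and library, an estimated count and an FPKM value (named RPKM in the methods), and 18 columns of other samples were not used. Of the estimated counts, 12% were not whole, whereas 0 of the members' counts were. Strand was not stated.

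Counts were rounded and tested with edgeR 4.0.16 in R 4.3.3 (filterByExpr, TMM factors from 0.9701 to 1.078, two-sided quasi-likelihood test) in 1 fit of 12 libraries with 8 residual degrees of freedom and a Benjamini-Hochberg threshold of 0.05. Standard errors were the log2 fold change over the root of F. Log2 CPM used a prior count of 2. Coordinates and promoters are from RefSeq GRCm38.p6, with 20564 gene IDs matched. No pair of libraries of a group agreed within sampling noise (chi-square per gene at least 3.73). Alternatives were DESeq2 1.42.0, limma 3.58.1 on log2(FPKM + 1) and log2(FPKM + 0.1), upper-quartile scaling, other filters, fits of the groups compared alone, a replicate block, leaving out each library, and a pooled-count test after DEGseq's model. The tests were also run on simulated data that took their means and spread from these libraries. The 10 members, the gene lists and the named-gene rule were chosen with earlier results of these data known. The rule names all members, the other pathway genes past the threshold or else that with the smallest p in each direction, and the 5 genes most like the members' mean profile.

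Same-numbered replicates of different groups had correlations of deviations from -0.17 to 0.065, none of 9 over 0.1, so the numbers were not taken as pairs.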

Additional observations from a re-analysis of the deposited data

How the results depend on the processing

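No member was called by edgeR, DESeq2, limma or the pooled-count test in any of the comparisons that each was run on. This held over 22 settings besides the one reported. The pooled-count test called only genes whose log2 fold change was 1 or more in size. The member estimate farthest from 0 in the reported fit was -0.66 (Piwil4, knockdown). That test therefore cannot tell whether the members changed by less than its cut. The 825 member values under the alternatives leave out the pooled-count test, whose member values were not kept. Of these, 766 kept their sign and 59 changed it, all on estimates that were not past the threshold. The smallest adjusted p of the 825 values, each from its own alternative test, was 0.684 with knockdown, 0.514 with overexpression, 0.327 between controls and 0.386 for the difference of effects. The medians over the members for knockdown, overexpression and controls moved by less than the within-group SD of 0.0687. That for the difference of effects, reported as -0.16, was -0.060 without both F0_3NC replicate 2 and F0_5251OV replicate 1, and -0.19 to -0.086 when each library was left out (the latter without F0_5NC replicate 2). The filter of 1 CPM in 3 libraries removed Piwil4, which has no value there. Depth limited Piwil4, with 5 to 20 counts per library, and 3 libraries per group limited all members.

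Counts over all genes moved more. DESeq2 called 20 genes with knockdown (4 by edgeR), 30 with overexpression (0), 138 between controls (54), 35 for the difference of effects (0) and 210 for any difference (74). The pooled-count test, which ignores the spread between libraries, called 143, 191 and 307 in the first 3 of these. Its threshold was that of the study (adjusted p at most 0.001, absolute log2 fold change at least 1), so its counts are not on the scale of the others. Limma called 2 (log2(FPKM + 1)) and 0 (log2(FPKM + 0.1)) with knockdown, and 1 for the difference of effects with the former. With overexpression, 3 were called without a filter and 3 in the fit of the groups compared alone. Without both F0_3NC replicate 2 and F0_5251OV replicate 1, chosen after seeing the data, the counts were 0 with knockdown, 26 between controls and 35 for any difference. Leaving out each library gave 0 to 7 with knockdown (0 when F0_5251KD replicate 3, or replicate 1 or 3 of F0_3NC, was left out, 1 without F0_5251KD replicate 1 or F0_5251OV replicate 2, and 7 without F0_5NC replicate 1), 0 to 1 with overexpression (1 without F0_3NC replicate 1 or 2, F0_5251KD replicate 2, or F0_5NC replicate 2 or 3), 30 to 68 between controls (30 without F0_5NC replicate 3 and 35 without F0_3NC replicate 2), 0 to 1 for the difference of effects (1 without F0_5NC replicate 3) and 57 to 92 for any difference. The cause of these shifts was not tested.

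The replicate number as a block, which the check of the numbers did not support as a pairing, gave 2 calls with knockdown, put Tdrd6 at 0.00080 with overexpression, and called no member.

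Apart from Piwil4, the log2 fold changes that changed sign lay near 0. With knockdown, Tdrd6 was at 0.0025 by limma with both pseudocounts and 0.028 without the 2 libraries, and Piwil2 at 0.0042 without them. With overexpression, Piwil2 was at -0.0058 with upper-quartile scaling, -0.032 and -0.033 by limma and -0.032 without the 2 libraries, where Piwil1 was at 0.015 and Asz1 at -0.049. For the difference of effects, Tdrd6 was at 0.0020 with DESeq2, 0.016 with upper-quartile scaling, 0.0069 without a filter, 0.012 with the 1 CPM filter, 0.048 by limma with both pseudocounts and 0.047 without the 2 libraries. Tdrd9 was at 0.014, 0.0037 and 0.0088 with upper-quartile scaling, no filter and the 1 CPM filter, Piwil1 at 0.0017 by limma with both pseudocounts, and Piwil2 and Piwil4 at 0.037 and 0.59 without the 2 libraries. Leaving out 1 library gave ranges that crossed 0 for Tdrd6 with knockdown (-0.042 to 0.028), for Piwil1 (-0.038 to 0.029), Piwil2 (-0.019 to 0.039), Tdrd6 (-0.068 to 0.047) and Asz1 (-0.035 to 0.16) with overexpression, for Piwil4 (-0.55 to 0.26) and Tdrd6 (-0.079 to 0.037) between controls, and for Piwil4 (-0.70 to 0.27), Tdrd6 (-0.060 to 0.066) and Tdrd9 (-0.079 to 0.11) for the difference of effects.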
